A study of Mus musculus with 6 samples.

Results

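Tetraspanin genes were examined in 32D cells, a mouse myeloid line that depends on interleukin-3 and grows in suspension. The group comprised 29 genes, represented by 63 probe sets, out of 18193 genes that some probe set names alone. Members were taken by name: a single annotated symbol beginning with Tspan and a number, or Cd9, Cd37, Cd53, Cd63, Cd81, Cd82, Cd151, Upk1a, Upk1b, Prph2 or Rom1. Cd63 was not analysed here. Each gene was read from its brightest probe set. Messenger RNA had been measured on 6 expression arrays: 3 of cells carrying the empty vector (construct A1-EV) and 3 of cells expressing miR-9 and miR-9* (construct C2-MiR-9). Both arms were cultured with 10 ng/ml interleukin-3 and 10% serum, and the arms share the replicate numbers 1 to 3. Whether each arm was 1 clone or a pool, and which promoter drove the construct, is not given in the sources used here, so the p-values measure the spread between these samples, which may be technical.

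The products of the microRNA gene that the treated arm expressed are 2 strands of 1 hairpin, and their seeds (bases 2 to 8, in capitals), which direct pairing to messages, differ. The sequences are shown because expressing them is what sets the treated arm apart by design.
mmu-miR-9-5p (miR-9): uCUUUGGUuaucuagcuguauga
mmu-miR-9-3p (miR-9*): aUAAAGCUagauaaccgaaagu
Both are from RefSeq, build GRCm38.p6. The mouse genome encodes the same 2 mature strands at 3 loci. The 5p strand lies on the plus strand at chr3:88215613-88215635 in Mir9-1, chr13:83738821-83738843 in Mir9-2 and chr7:79505279-79505301 in Mir9-3. Sites for these seeds in tetraspanin messages were not analysed here.

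Tetraspanins are small proteins that cross the membrane several times and carry a large extracellular loop. They bind one another and collect partner proteins, among them integrins, immunoglobulin-family receptors and the protease ADAM10, into patches of the membrane, and they steer the traffic of those partners. Blood cells carry many of them: Cd37 and Cd53 are found mainly on leukocytes, Cd9 and Cd151 also on platelets, and the TspanC8 subgroup escorts ADAM10 to the cell surface.

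The values are MAS5 signals, a summary of the probes for 1 transcript region, scaled to a trimmed mean of 100 on every array. Median signals ran from 12.0 to 15.2. Signals of different probe sets do not rank messages, because probes differ in brightness. A difference between the arms is the mean log2(signal + 16) of miR-9/9* minus that of the empty vector, a scale that understates the change of dim genes. Genes whose mean lay below the median probe set, a signal of 12.9, were not tested. Of the myeloid markers, 8 of 9 lay above that level, Elane being the exception, while 5 of 7 B cell and 6 of 7 T cell markers lay below it.

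Of the 29 tetraspanin genes, 17 lay above the filter and 12 below it. All 7 of the leukocyte surface group were above it: Cd9, Cd37, Cd53, Cd81, Cd82, Cd151 and Tspan32. The TspanC8 group was divided, with Tspan5, Tspan14 and Tspan15 above the filter and Tspan10, Tspan17 and Tspan33 below. Of 12 members in neither group nor among the urothelial and retinal genes, 6 were above it: Tspan3, Tspan4, Tspan9, Tspan13, Tspan18 and Tspan31. The urothelial plaque gene Upk1a was just above it, and Upk1b and the photoreceptor disc genes Prph2 and Rom1 were below. The genes below the filter, which also included Tspan1, Tspan2, Tspan6, Tspan8, Tspan11 and Tspan12, did not exceed a signal of 21.0 on any array. The plot of signals on each array shows the arms side by side for the 17 genes.

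**Figure D1:**
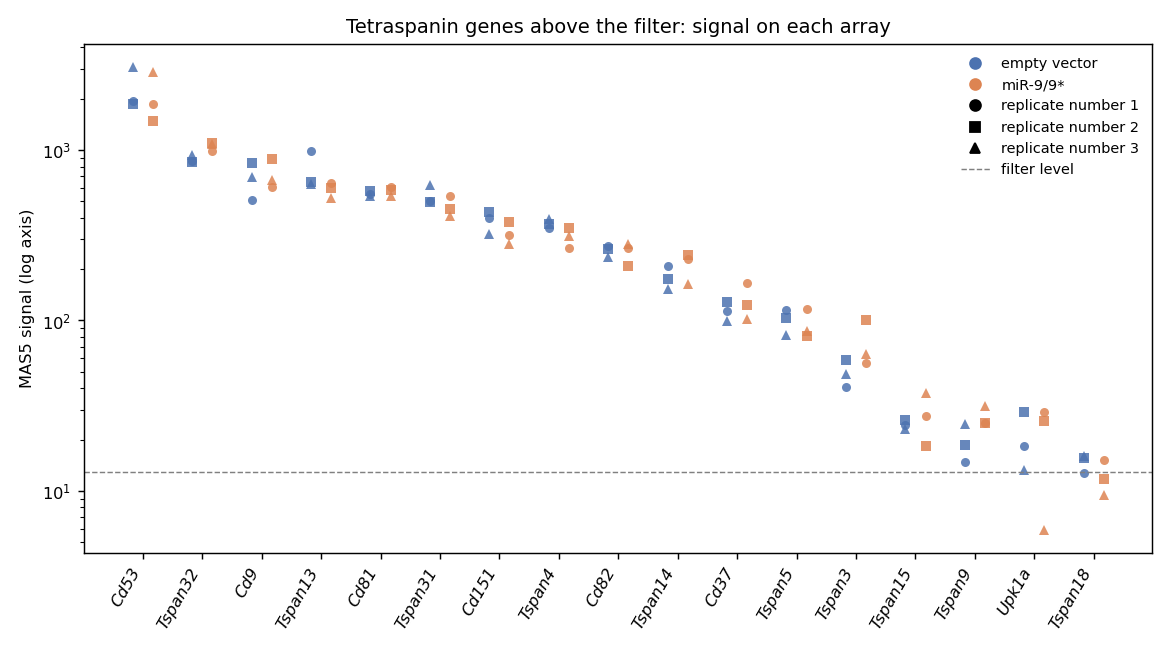
MAS5 signal (log axis) of the 17 tetraspanin genes above the filter on each of the 6 arrays, blue for the empty vector and orange for miR-9/9*, with marker shapes for the replicate numbers and a dashed line at the filter, 12.9. Tspan32 and Tspan9 are the genes whose orange points all lie above the blue ones, and in Cd53 the points of replicate number 3 stand highest in both arms.

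No tetraspanin gene passed the test between the arms. In limma, with p-values adjusted over 10208 genes, 0 of the 17 genes passed without a block (lowest adjusted p = 0.999), where 0.0588% of all genes passed, and 0 passed with the replicate number as a block (lowest adjusted p = 0.0855), where 2.96% did. An unadjusted p under 0.05 was reached by 1 member without the block, against 4.60% of all genes, and by 6 with it, against 17.0%. The members' median difference was -0.04, against 0.01 over all genes tested, and their mean differences ran from -0.33 to 0.43. Differences pointed up in 3 of 3 pairs for 4 members and down in 3 of 3 for 4 others. Over all genes these shares were 21.0% and 18.0%, so the members stood near the background. The arms did not overlap for 2 members, Tspan32 and Tspan9, against 9.82% of all genes.

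The intervals show how large a change the arrays could have missed. All 17 of the 95% intervals lay within a 2-fold change in either direction on the shifted scale, with or without the block. Within a 1.5-fold change lay 11 without the block and 15 with it. The most extreme bounds with the block were -0.54 for Tspan13 and 0.70 for Tspan3. These intervals are for the 1 probe set read per gene. Without the block, those of the dimmer sets Cd37 1419206_at (-0.47 to 1.46) and Cd82 1449611_at (-1.20 to 0.09) reached past 2-fold.

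**Figure D2:**
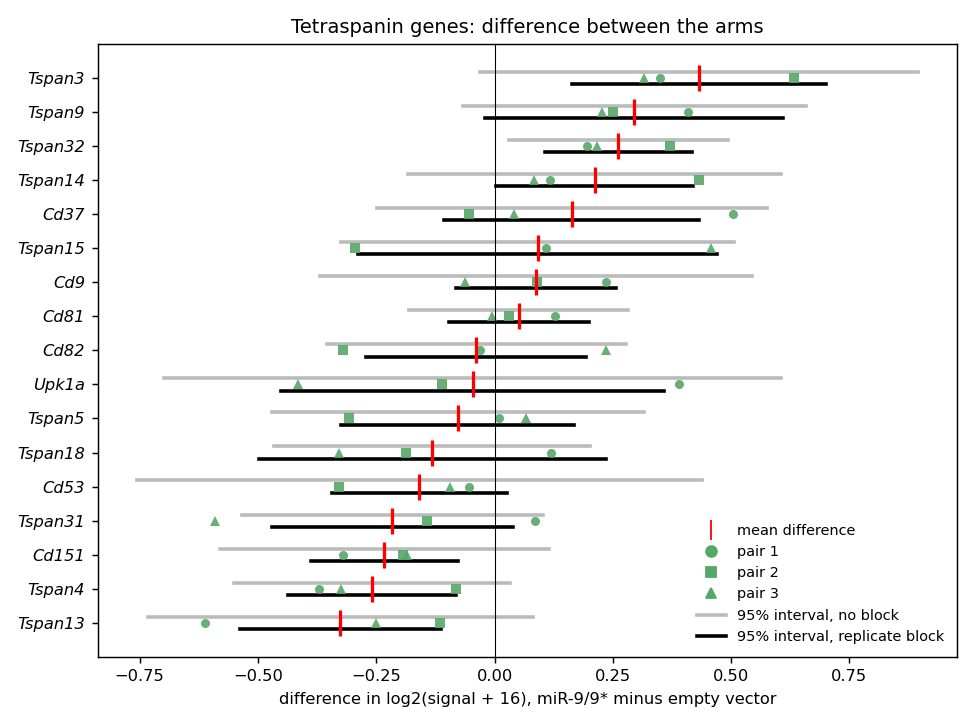
Difference in log2(signal + 16), miR-9/9* minus empty vector, for the 17 genes. Red ticks are means over 3 arrays per arm, green markers the differences within each replicate number, and grey and black bars the 95% intervals without and with the replicate block. The means run from -0.33 (Tspan13) to 0.43 (Tspan3), and every bar ends within 1 log2 unit of 0.

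Tspan32, a tetraspanin of blood cells that takes part in platelet integrin signalling, had the smallest unadjusted p among the members in both fits. Its signals (probe set 1418398_a_at) were 862, 848 and 929 with the empty vector and 989.8, 1101 and 1083 with miR-9/9*. Every miR-9/9* array was thus above every empty vector array. The means were 879.7 ± 43.7 and 1058 ± 59.7 (SD, n = 3 each), 20.3% apart. The difference was 0.26 on the log2 scale, with an SE of 0.0688 in the blocked fit and a limma adjusted p of 0.0855. Its dimmer probe set, 1431289_at, went the other way, at 114, 106 and 71.0 against 89.3, 115 and 73.6, a difference of -0.05 with overlapping arms. Averaging the probe sets brought the difference to 0.10.

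Tspan9, found on platelets, was dim. Its signals were 14.8, 18.6 and 24.6 with the empty vector and 24.9, 25.1 and 31.5 with miR-9/9*. The arms were separated by less than 1 signal unit, between 24.6 and 24.9. The difference was 0.30, and the blocked interval, -0.02 to 0.61, included 0 (limma adjusted p = 0.328). It was 0.49 with a pseudocount of 1 and 0.13 with one of 64. Its neighbouring member on chromosome 6, Tspan11, lay below the filter.

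Other cell type markers, from lists chosen with earlier results of these data known, moved in these samples. With the block, which called 2.96% of all genes, 4 of 7 megakaryocyte markers above the filter (Itgb3, Gp5, Gp9 and Vwf) were called higher. So were 3 of 7 erythroid markers above it (Gata1, Klf1 and Rhag). Of those not called, Itga2b, Pf4 and Selp differed by 0.07, 0.01 and -0.12. Epor, Hemgn, Tfrc and Epb42 differed by 0.12, 0.21, -0.095 and -0.155. The summed signal of the megakaryocyte list ranged from 1287 to 2357 with the empty vector and from 1554 to 2952 with miR-9/9*. That of the erythroid list ranged from 2793 to 3994 and from 3854 to 4006. These sums lean on the brightest probe sets, those of Itga2b and Tfrc, which were not called. Itga2b ranged from 946 to 1595 with the empty vector and from 1015 to 1645 with miR-9/9*. Tfrc ranged from 1515 to 2638 and from 1721 to 2012. Among the defining markers, Gp1bb, Gp6 and Ppbp, and Alas2 and Slc4a1, had means over the 6 arrays below the filter. Also with the block, 2 of 3 eosinophil markers above the filter (Prg2 and Siglecf) were higher, with sums over the list from 255 to 1376 and from 277 to 3617. Epx, which is part of these sums, was not called and had pairs of mixed sign. The eosinophil receptor genes Il5ra and Ccr3 lay below the filter. The late neutrophil markers S100a8, S100a9 and Ltf, 3 of 6 above the filter, were lower, with sums over the list from 1007 to 3908 and from 248 to 2650.1. Ngp, which was not called, is part of these sums and reached 2511 with the empty vector and 2054 with miR-9/9*. Ngp and Lcn2 differed by -0.78 and -0.77, while Mmp9, also not called, was higher in each pair, with a difference of 0.18. Camp and Mmp8, below the filter, differed by 0.09 and 0.17. Of 6 monocyte markers F13a1 was higher in both fits, of 8 myeloid markers Csf2rb was lower with the block, and 0 of 4 mast cell markers passed in limma in either fit, with 2 at an unadjusted p under 0.05 with the block. The part of these cell types in the tetraspanin values was not tested, and in bulk RNA fewer cells of a type and less message per cell cannot be told apart.

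Cd9, which binds integrins and is abundant on megakaryocytes and eosinophils, stood at 509.9, 834 and 696.5 with the empty vector and 603, 888 and 666 with miR-9/9*. The arms overlapped almost entirely, and each followed the same order of replicate numbers. The difference was 0.09, with a blocked interval from -0.08 to 0.26, and it turned to -0.10 without empty vector number 1 and to -0.07 without miR-9/9* number 2. Cd81, the B cell co-receptor component and the gene next to Tspan32 on chromosome 7 among protein-coding genes, had the narrowest blocked interval of the 17, with signals of 550.4, 573 and 538 against 603, 586 and 536. Its mean differed by 3.82%, and its blocked interval ran from -0.10 to 0.20.

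Cd151, a partner of laminin-binding integrins, was read from probe set 1437670_x_at, whose suffix marks probes that may also pair with other transcripts. It stood at 399, 432 and 319.6 with the empty vector and 316, 376 and 279 with miR-9/9*. It was lower in each pair, by 0.32, 0.19 and 0.18, although the arms overlapped. The means were 383 ± 57.7 and 324 ± 48.7 (SD, n = 3 each), a difference of -0.23 (limma adjusted p = 0.123 with the block). Leaving out single arrays gave from -0.35 to -0.14. Cd53, a leukocyte tetraspanin, had signals of 1936, 1868 and 3066 against 1864, 1484 and 2871. It was also lower in each pair, by 0.05, 0.33 and 0.09 (limma adjusted p = 0.374 with the block). The difference of -0.16 turned to 0.07 without empty vector number 3 and to 0.05 without miR-9/9* number 2, and was -0.42 without miR-9/9* number 3.

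Cd37, a B cell and myeloid tetraspanin, had signals of 113, 128 and 99.0 against 167, 123 and 102, so that 1 array, miR-9/9* number 1, stood above the rest. Its pairs had mixed signs. Cd82, known as a suppressor of metastasis, had signals of 272, 263 and 237 against 266, 208 and 282, also with pairs of both signs and a difference of -0.04. A dimmer probe set of each of these genes, compared below, had pairs that agreed in sign.

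Among the TspanC8 genes, Tspan14 was higher in 3 of 3 pairs, at 209, 175 and 153.5 with the empty vector and 228, 242 and 164 with miR-9/9*. The arms overlapped, and the difference of 0.21 did not pass (limma adjusted p = 0.286 with the block). It was 0.11 without miR-9/9* number 2 and 0.37 without miR-9/9* number 3. Tspan5 had signals of 115, 104 and 82.0 against 116, 80.7 and 86.6, and Tspan15 24.4, 26.0 and 23.0 against 27.6, 18.3 and 37.6. Both had pairs of mixed sign, with differences of -0.08 and 0.09. Their client protease, Adam10, was at 1766 ± 156 against 1626 ± 314 (SD, n = 3 each), a difference of -0.13 that did not pass.

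The remaining Tspan genes held the largest differences of the group. Tspan3, a widely expressed member, had signals of 40.9, 58.9 and 48.2 with the empty vector and 56.5, 100.0 and 63.9 with miR-9/9*. It was higher in each pair, by 0.35, 0.63 and 0.32, although 2 miR-9/9* arrays alone cleared the whole empty vector range. The means of 49.3 ± 9.05 and 73.5 ± 23.3 (SD, n = 3 each) were 49.0% apart, and the difference of 0.43 had a limma adjusted p of 0.0976 with the block. It was 0.23 without the brightest array, miR-9/9* number 2, and 0.27 with a pseudocount of 64.

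Tspan13 had signals of 994, 652 and 629.6 with the empty vector and 645, 601 and 527 with miR-9/9* (probe set 1418643_at). Empty vector number 1 stood far above the other 5 arrays. The difference was -0.33 (limma adjusted p = 0.113 with the block), and -0.12 without that array. Its other probe set, 1460239_at, had no such array: 532, 524 and 506 against 382, 382 and 420.2. There the arms were fully separated, with a difference of -0.39.

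Tspan4, whose protein organises migrasomes, vesicles left behind by moving cells, had signals of 347, 368 and 396 against 265, 347 and 312. The arms met at 347, and each pair was lower, by 0.37, 0.08 and 0.33 (limma adjusted p = 0.131 with the block). Without replicate 2 of both arms, limma with the block called Tspan4 (difference -0.35, adjusted p = 0.0426) and Tspan13 (-0.43, adjusted p = 0.0310) lower. That fit called 197 of 10260 genes higher and 158 lower. Tspan4 and Cd151 lie on chromosome 7 with 1 protein-coding gene between them, and both were lower in 3 of 3 pairs.

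Tspan31 had signals of 503, 498 and 626 against 535, 449 and 410.3. Its pairs differed in sign, and the difference was -0.22. Its other probe set above the filter, 1416556_at, was lower in each pair, with differences of -0.18, -0.23 and -0.26. The mean difference there was also -0.22, with overlapping arms (limma adjusted p = 0.165 with the block and probe sets as units). Upk1a, at 18.3, 29.0 and 13.2 against 28.95, 25.6 and 5.92, and Tspan18, at 12.7, 15.5 and 15.95 against 15.2, 11.7 and 9.44, were near the filter, and their arms overlapped.

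Probe sets of 1 gene were compared as a check on these values. Of the 63 tetraspanin probe sets, 28 lay above the filter. In limma with each probe set as a unit, 0 of them passed without the block (0.00888% of all probe sets did), with 3 at an unadjusted p under 0.05. With the block 12 had an unadjusted p under 0.05 in limma, more than 1 of them from Cd151 and from Tspan13. The share of all probe sets at that p was not computed. Over genes it was 4.60% without the block and 17.0% with it. After adjustment 2 passed with the block, where 1.95% of all probe sets did. These were Tspan13 1460239_at (adjusted p = 0.0314) and Cd151 1456085_x_at (adjusted p = 0.0393). The Cd151 probe set read 366, 376 and 308 with the empty vector and 244, 285 and 254 with miR-9/9*, a difference of -0.40 with separated arms. It carries the same suffix as the set used for the gene. The other 4 Cd151 probe sets above the filter differed by -0.23, -0.17, -0.19 and -0.07 and did not pass.

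Of the 8 genes with several probe sets above the filter, 7 had the same sign in all of them and 1, Tspan32, did not. Agreement in sign did not mean agreement in size. For Cd37 the second probe set, 1419206_at, differed by 0.49 against 0.16, and for Cd82 the dimmer 1449611_at differed by -0.55 against -0.04. Unlike the brighter sets, 1419206_at was higher in each pair and 1449611_at lower in each pair. Neither passed (limma adjusted p = 0.0829 and 0.122 with the block).

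**Figure D3:**
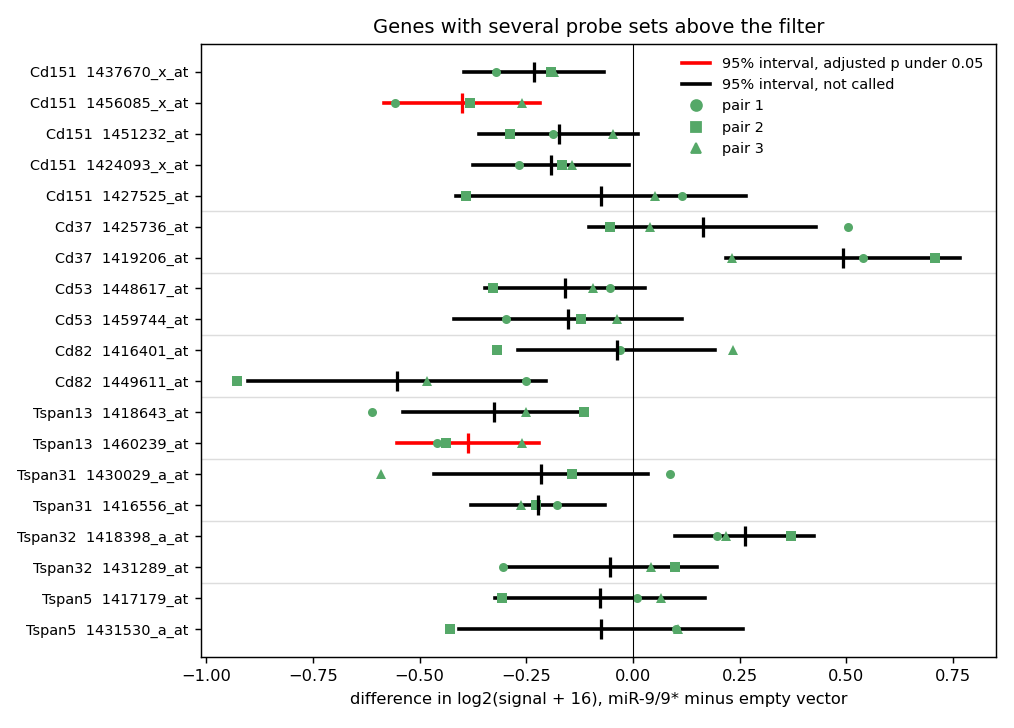
Difference in log2(signal + 16), miR-9/9* minus empty vector, for each probe set above the filter of the 8 genes that have several. Ticks are means, green markers the 3 pairs and bars the 95% intervals with the replicate block, red where the adjusted p is under 0.05. The red bars are Cd151 1456085_x_at and Tspan13 1460239_at, and the Tspan32 probe sets lie on opposite sides of 0.

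Replicate numbers separated several members more clearly than the arms did. A limma F test between the 3 numbers, within the blocked fit, called 5 of the 17 members: Cd53, Cd9, Cd151, Tspan13 and Tspan14. Over all genes 24.3% were called, so this share is near the background. Cd53 averaged 1899.6, 1676 and 2969 in numbers 1, 2 and 3, a ratio of 1.77 between the highest and the lowest (limma adjusted p = 0.00218). Number 3 was the highest and number 2 the lowest in both arms. Its second probe set, 1459744_at, repeated that order at 55.9, 44.2 and 78.6 with the empty vector and 42.5, 39.3 and 76.1 with miR-9/9* (limma adjusted p = 0.0167 with probe sets as units, where 25.1% were called).

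Cd9 ran differently, averaging 556, 861 and 681 in the same numbers, with number 2 the highest and number 1 the lowest in both arms (limma adjusted p = 0.00588). Cd151 averaged 358, 404 and 299 (limma adjusted p = 0.0207). Tspan13 and Tspan14 passed at adjusted p of 0.0365 and 0.0429 in limma. Second probe sets did not always follow, in either direction. With probe sets as units, where 25.1% were called, sets of genes not called above also passed between the numbers. They were Cd37 1419206_at (limma adjusted p = 0.000917), Tspan31 1416556_at (0.00956), Cd82 1449611_at (0.0277) and Tspan32 1431289_at (0.0415). Upk1a passed in the same fit (0.0426). With probe sets as units, Tspan13 1460239_at did not pass between the numbers (limma adjusted p = 0.920), and its miR-9/9* arrays were highest in number 3, not number 1. Of the 5 Cd151 probe sets, the one used for the gene passed, and the other 4 did not (limma adjusted p from 0.0522 to 0.258). Without a variance trend, where 8.52% of all genes were called, 1 of the 5 calls remained, that of Cd53 (limma adjusted p = 0.0268). With dim probe sets kept in, where 5.81% of all genes were called, those of Cd53 and Cd9 remained, among 29 members tested. Quantile normalization, with 21.1% of all genes called, ended the call of Tspan14 (limma adjusted p = 0.127).

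**Figure D4:**
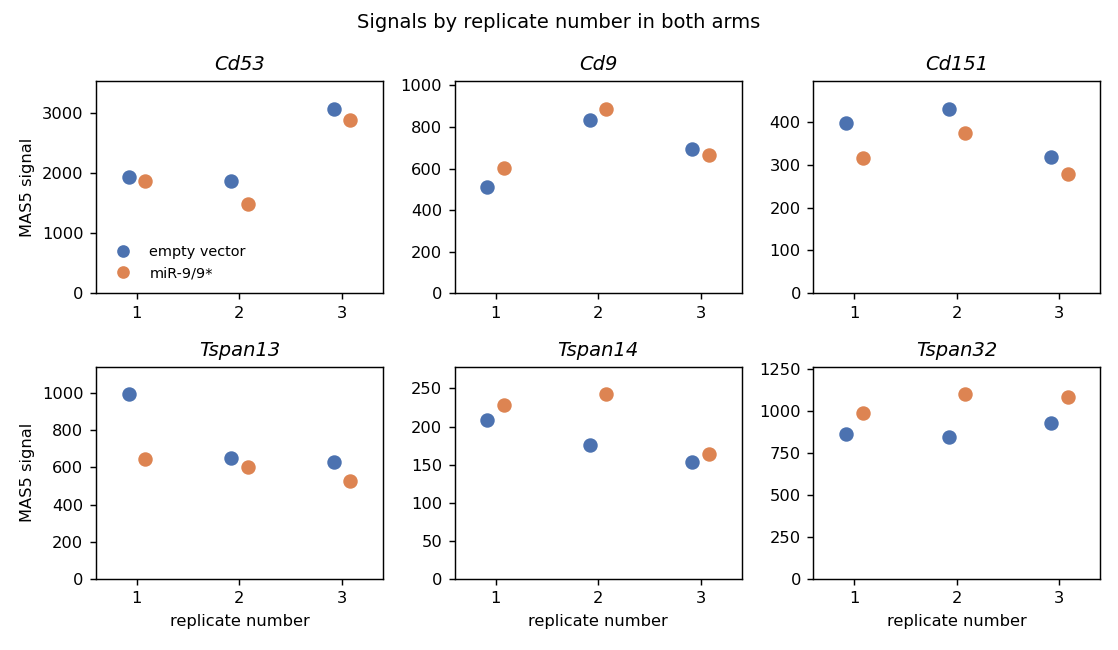
MAS5 signal, on axes that start at 0, by replicate number for the empty vector (blue) and miR-9/9* (orange): the 5 genes called between replicate numbers, and Tspan32. Cd53 is highest in number 3 and Cd9 in number 2 in both arms, whereas the arms of Tspan32 are separated in every number.

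Promoter windows were read for the genes on which these results turn most, Tspan32 for the arms and Cd53 for the replicate numbers. Each window runs from 250 bases before to 50 bases after a RefSeq start (GRCm38.p6), 5′ to 3′. Capitals mark AGATAA, a core bound by GATA factors, and GAGGAA, a core of sites for the ETS factor PU.1, on either strand. The motifs were chosen after the sequences were seen, and no binding was measured.
Tspan32, chr7:143004796-143005095, plus strand: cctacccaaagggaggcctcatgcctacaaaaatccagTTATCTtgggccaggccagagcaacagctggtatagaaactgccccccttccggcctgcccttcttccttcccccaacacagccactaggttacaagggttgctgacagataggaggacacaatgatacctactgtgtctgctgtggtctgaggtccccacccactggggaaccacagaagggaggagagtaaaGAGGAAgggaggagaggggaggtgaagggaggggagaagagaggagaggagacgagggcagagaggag
Cd53, chr3:106790100-106790399, minus strand: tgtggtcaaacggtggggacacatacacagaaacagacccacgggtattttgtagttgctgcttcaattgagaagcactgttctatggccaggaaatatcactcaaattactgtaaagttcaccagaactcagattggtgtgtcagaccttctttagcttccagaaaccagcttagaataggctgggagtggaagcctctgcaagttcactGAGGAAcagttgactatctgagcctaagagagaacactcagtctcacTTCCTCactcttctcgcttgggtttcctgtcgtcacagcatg
The 16 tetraspanin genes above the filter that matched the table had 25 windows. AGATAA occurred in 1 of them, that of Tspan32, or 4.0%, against 11.2% of 32851 windows of all genes. GAGGAA occurred in 8 windows of 7 genes, or 32.0%, against 28.3%.

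Proteins that tetraspanins bind or travel with were taken from a list of 43 genes, of which 35 were above the filter. That list, too, was chosen with earlier results of these data known. In limma 0 of them passed without the block, 3 having an unadjusted p under 0.05, against 4.60% of all genes. With the block 3 were called higher and 1 lower, against 2.96% of all genes called in either direction, and 9 had an unadjusted p under 0.05, against 17.0%. Of 9 integrin genes, Itgb3, the platelet integrin beta 3, was higher and Itga6, the alpha subunit of laminin receptors that pair with Cd151, was lower. Itgb3 read 22.9, 34.5 and 15.5 with the empty vector and 149, 160.5 and 83.8 with miR-9/9*, without overlap (difference 1.85, limma adjusted p = 0.000502 with the block and 0.0741 without it). It is also on the megakaryocyte list above. Itga6 read 439, 637 and 424 against 312, 518 and 304. The arms overlapped, but each pair was lower, for a difference of -0.41 (SE 0.0698, limma adjusted p = 0.0166 with the block).

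Of 6 immunoglobulin-family and other surface partners, the hyaluronan receptor Cd44 was higher, at 641, 606 and 464 against 851, 698 and 631 (difference 0.34, limma adjusted p = 0.0388 with the block). Of 6 kinase, palmitoylation and cytoskeletal linker genes, Prkca, a protein kinase C that associates with tetraspanins, was higher, at 298, 260.1 and 247 against 401, 365 and 322, without overlap (difference 0.41, limma adjusted p = 0.0148 with the block). None of these 4 passed without the block. Of 4 proteases and Notch receptors, 0 passed in limma with the block, with 1 at an unadjusted p under 0.05. Adam17, a second shedding protease, was at 346 ± 66.9 against 333 ± 110 (SD, n = 3 each). Of 10 endosome and exosome genes 0 passed in limma with the block, with 3 at an unadjusted p under 0.05. The syntenin gene Sdcbp was at 1863 ± 259 against 1886 ± 259 and Lamp1 at 1531 ± 78.7 against 1576 ± 131 (SD, n = 3 each).

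The calls of Itga6, Cd44 and Prkca were lost when dim probe sets were kept in (limma adjusted p = 0.0682, 0.121 and 0.0562), without a variance trend (0.116, 0.174 and 0.109) and without replicate 1 of both arms (0.0758, 0.165 and 0.0558). Calls over all genes also fell in these fits, from 154 higher and 148 lower of 10208. They were 40 and 34 of 18193, 21 and 17 of 10208, and 88 and 80 of 10219, in that order. Averaging probe sets, where 100 and 87 of 9586 genes were called, ended the calls of Cd44 (0.110) and Prkca (0.304, with a difference of 0.17). That of Cd44 was also lost without replicate 3 of both arms (0.0724), where 178 and 214 of 10168 genes were called. It was lost too with arrays centred on their medians (0.0689), where 116 and 150 of 10208 were. In fits without a block, the Itga6 difference was -0.22 without empty vector number 2 and -0.65 without miR-9/9* number 2, and that of Cd44 was 0.21 without empty vector number 3 and 0.23 without miR-9/9* number 1. Itgb3 kept its call in all 14 fits with a block, although its difference fell to 1.06 with probe sets averaged and to 1.12 with a pseudocount of 64.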

How the data were processed

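Biotinylated cRNA from 6 ug of total RNA of 6 samples was hybridised to expression arrays, per the labels' protocols. The deposited values are MAS5 signal intensities on a linear scale, per the submitters' processing notes, which give no version; each array has a mean of 100 without its lowest and highest 2%. Detection calls were not used here. Symbols came from a 2016 platform annotation, and all 29 members matched a RefSeq table (GRCm38.p6) by Entrez ID. Values were transformed to log2(signal + 16). Genes with a mean below the median probe set were left out, leaving 10208. The test between arms was limma (3.58.1, R 4.3.3; variance trend, two-sided, Benjamini-Hochberg over all genes tested, threshold 0.05), without a block (4 residual degrees of freedom) and with the replicate number as a block (2). Across genes, deviations from the arm mean correlated between arrays of 1 number at 0.491, 0.616 and 0.680, each above the limit of 0.1, so the numbers were read as pairs from the data; the labels give the numbers only. The scripts were tested on simulated data. Named genes are the members called in either fit, those with separated arms, those with an unadjusted p under 0.05 with the block and the 6 brightest; other members are given briefly. From each partner list come up to 4 called genes, or the 2 brightest. Members and lists were chosen with earlier results of these data known. Probe sets as units and the test between replicate numbers were added after the data were seen.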

Additional observations from a re-analysis of the deposited data

How the results depend on the processing

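Without a block limma called 0 tetraspanin genes in 17 of 17 fits (the reported one, pseudocounts of 1 and 64, filters, normalizations, variance models, array weights, averaged probe sets, and leaving out each array). Those fits called few genes at all, at most 14 higher and 12 lower, with array weights. They called 0 with dim probe sets kept in or without empty vector replicate 1. With the replicate block the count of tetraspanin genes was 0 under 13 of 14 fits. It was 2, both lower, without replicate 2 of both arms, where 197 of 10260 genes were called higher and 158 lower. The members' median difference ran from -0.04 to 0.08 when single arrays were left out. Of the partner genes, limma without the block called 1, Itgb3, after quantile normalization, with arrays centred on their medians, with array weights and without miR-9/9* replicate 3, so single left-out arrays gave 0 to 1. With the replicate block the count was 4. It was also 4 with pseudocounts of 1 and 64, a stricter filter, quantile normalization, robust variances and array weights. It was 3 with arrays centred on their medians, 2 with averaged probe sets, and 1 with dim probe sets kept in or with no variance trend. Over all genes, dim probe sets kept in gave 40 higher and 34 lower, and no variance trend 21 and 17, against 154 and 148. Without replicates 1, 2 and 3 of both arms the count of partner genes was 1, 5 and 4. Over all genes those fits called 88, 197 and 178 higher and 80, 158 and 214 lower. The cause was not tested. Fits that drop a replicate number of both arms keep 1 residual degree of freedom. Depth does not apply to arrays: 3 arrays per arm limit every value. In the blocked fit the dim genes Upk1a, Tspan15, Tspan18 and Tspan9 had the largest standard errors of the 17 tetraspanin genes, and without the block Upk1a, Cd53, Tspan3 and Cd9 did.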
